A study of Mus musculus with 2 samples.

Results

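S100 proteins and annexins were followed in pyloric stomach cells with high and low expression of the Lgr5 reporter. The set was 10 genes, with S100a1, S100a6, S100a10, S100a11, S100a13 and S100a14 on the S100 side and Anxa1, Anxa2, Anxa3 and Anxa10 on the annexin side. They were chosen by gene name, and the names had been selected on their GFPhigh over GFPlow ratios on these same arrays, so the ratios below are a description of the members and not a test of them. The 10 genes were read by 12 probes, and all 10 were among the 7830 genes measured. Measured means that the population with the brighter signal was well above background on each of the 2 arrays.

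The cells were from the pylorus, the stomach region that borders the duodenum, and 20 mice carrying the Lgr5-EGFP-ires-CreERT2 allele were used. The Lgr5 locus there drives green fluorescent protein (GFP) together with a tamoxifen-activated Cre recombinase, and both populations carried the allele. The dissociated cells of the 20 stomachs were sorted by flow cytometry into a GFPhigh and a GFPlow population, so each population was a pool of animals and neither was a wild-type or a GFP-negative control. Age and sex of the mice and any tamoxifen treatment are not given in the sources used here. Both RNAs were hybridised together on 2 Agilent two-colour arrays, with GFPhigh as the Cy3 channel of array 1 and the Cy5 channel of array 2. With 1 RNA extract per population, the arrays are a technical dye swap and count as 1 replicate. The populations could therefore not be tested against each other, and every SD below is technical.

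S100 proteins are small calcium sensors built from a pair of EF hands, which usually work as dimers and expose a binding face when calcium is bound. Annexins are proteins that bind acidic phospholipids in the presence of calcium and organise membrane domains, exocytosis and membrane repair. Several S100 dimers bind the N-terminal tail of an annexin, the best known complexes being S100A10 with annexin A2 and S100A11 with annexin A1, and most mouse S100 genes lie side by side in 1 chromosomal cluster.

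The measurements rest on single 60-base probes, and 5 of them are printed because they carry the S100a6 result, both Anxa2 readings, the Anxa1 side of the Anxa1 and S100a11 pair, and the S100a13 value in the gene cluster. All are written 5′ to 3′ as deposited in the array files, with mm9 positions per the same files. The S100a6 probe lies at chr3:90418160-90418219 on the plus strand. The brighter Anxa2 probe lies at chr9:69337510-69337569 and the dimmer at chr9:69330846-69331620, both on the plus strand. The Anxa1 probe lies at chr19:20448248-20449761 on the minus strand and the S100a13 probe at chr3:90319950-90328319 on the plus strand. Spans longer than 60 bases mark probes that cross an intron, so these 3 probes read spliced RNA.
S100a6 probe: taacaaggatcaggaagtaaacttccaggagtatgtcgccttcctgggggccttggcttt
Anxa2 brighter probe: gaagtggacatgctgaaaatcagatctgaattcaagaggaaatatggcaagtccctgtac
Anxa2 dimmer probe: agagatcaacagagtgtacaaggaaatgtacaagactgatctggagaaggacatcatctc
Anxa1 probe: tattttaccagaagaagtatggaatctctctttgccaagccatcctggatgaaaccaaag
S100a13 probe: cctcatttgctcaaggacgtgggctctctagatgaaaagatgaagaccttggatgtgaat
The longest run that any of these 5 shared with a probe of another gene was 12 to 15 bases. The other S100 probes lie at chr3:90315133-90315192 (S100a1, minus strand), chr3:90332439-90332498 (S100a14), chr3:93330017-93330076 (S100a11) and chr3:93368437-93368496 (S100a10), the last 3 on the plus strand. The Anxa3 probe lies at chr5:97274784-97274843 on the plus strand and the Anxa10 probe at chr8:64536504-64536563 on the minus strand. An mm9 gene annotation was not used here, so exons and untranslated regions are not assigned. For S100a11, Anxa3 and the dimmer Anxa2 probe, the array files also list 1 further predicted transcript.

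Across all 7830 genes the median log2 ratio of GFPhigh over GFPlow was -0.06, the 5th and 95th percentiles were -0.90 and 0.84, and the median SD of the 2 arrays was 0.27. A gene was called higher or lower in GFPhigh where both arrays showed a difference of 2-fold or more with the same sign. That held for 138 genes higher in GFPhigh (1.76%) and 211 genes lower in GFPhigh (2.69%). The split was 10 higher and 215 lower with median centring in place of loess, and 23 higher and 1322 lower with spike-in centring, and these moved the median of all genes to -0.49 and -0.81. Lgr5 itself, the check of the sort, had levels of 924 and 709 in GFPhigh against 184 and 150 in GFPlow and a log2 ratio of 2.28 ± 0.06. A second Lgr5 probe was well above background in neither population on either array, with 74 and 79 in GFPhigh against 77 and 69 in GFPlow. Levels are normalised intensities on a linear scale, given for array 1 and then array 2, and can be compared between populations within a gene but not between genes.

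Of the 10 members, 6 were called lower in GFPhigh and 0 were called higher. This was the contrast on which the names were selected, so nothing is read from these counts against the 1.76% and 2.69% of all genes. The called genes were S100a6, S100a14, S100a10, Anxa3, Anxa10 and Anxa1, which is 3 of 6 S100 genes and 3 of 4 annexins. The GFPlow level exceeded the GFPhigh level on both arrays without overlap in 7 members, these 6 and Anxa2. The reverse held for S100a1. How many of all genes showed no overlap was not counted, so nothing is read from these 2 statements either. The S100 members had a median log2 ratio of -0.71 and the annexin members of -1.63. In a bulk measurement of sorted pools, fewer cells of a type and less RNA per cell cannot be told apart.

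**Figure D1:**
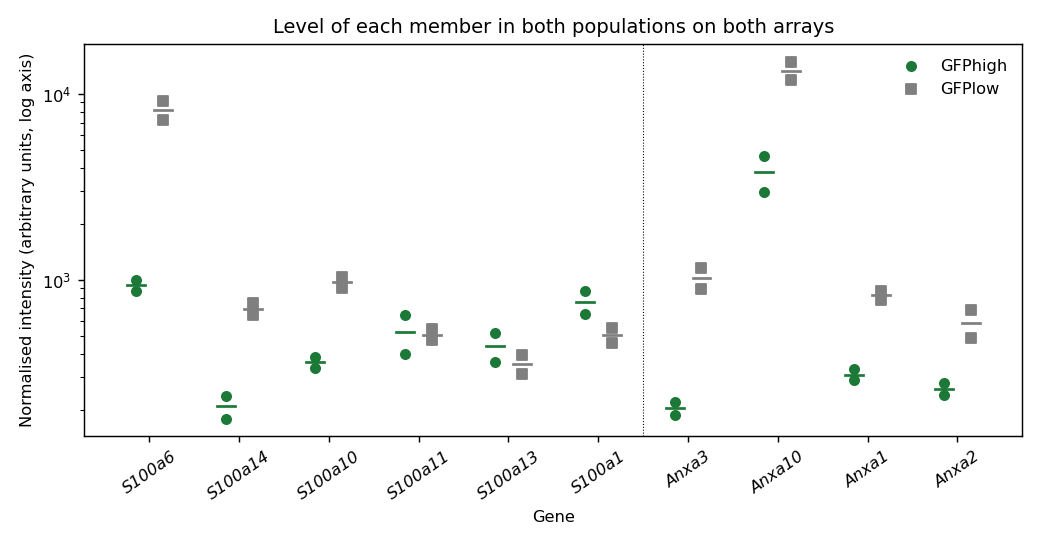
Normalised intensity of each member (log axis, linear units) in GFPhigh (left of each pair) and GFPlow, with 1 point per array and a bar at the mean. The GFPlow points lie above the GFPhigh points without overlap for S100a6, S100a14, S100a10 and the 4 annexins, and heights cannot be compared between genes.

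S100a6, also called calcyclin and a calcium sensor that binds annexins and the ubiquitin ligase adaptor CacyBP, stood farthest apart. Its level was 997 and 873 in GFPhigh, against 7261 and 9084 in GFPlow. Both GFPlow readings were thus far above both GFPhigh readings. The arrays gave log2 ratios of -2.86 and -3.38, with a mean of -3.12 ± 0.36 (SD of 2 arrays), or 8.7-fold lower in GFPhigh. Among the 7830 genes only 5 had a lower mean ratio.

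S100a14, an epithelial S100 protein that binds calcium weakly, read 179 and 237 in GFPhigh, against 649 and 749 in GFPlow. Its log2 ratio of -1.76 ± 0.14 was close on the 2 arrays (-1.86 and -1.66) and placed it 70th from the lowest, and the processed signals of the scanner software gave -2.47 ± 0.19. S100a10, also called p11, has lost calcium binding and holds annexin A2 at the membrane as a constitutive dimer. It read 337 and 385 in GFPhigh, against 1028 and 905 in GFPlow. Its log2 ratio was -1.61 and -1.23, with a mean of -1.42 ± 0.27, and it was 2.68-fold lower in GFPhigh.

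The other 3 S100 members did not pass the call. S100a1, best known as a regulator of calcium handling in muscle, read 864 and 654 in GFPhigh, against 458 and 547 in GFPlow. Its groups did not overlap, but the arrays gave log2 ratios of 0.92 and 0.26. The mean of 0.59 ± 0.47 became -0.01 ± 1.75 with median centring and -0.20 ± 0.73 with spike-in centring. S100a13, which takes part in the release of proteins that lack a signal peptide, read 516 and 362 in GFPhigh, against 310 and 392 in GFPlow. These readings overlapped, and the log2 ratio of 0.74 on array 1 and -0.11 on array 2 averaged 0.31 ± 0.60. The mean was -0.21 ± 1.74 with median centring and -0.47 ± 0.86 with spike-in centring. For both genes these means were smaller in size than their SD, so no change of sign was shown.

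S100a11, also called calgizzarin, read 398 and 643 in GFPhigh, against 472 and 543 in GFPlow. The readings overlapped, and the log2 ratios of -0.25 and 0.24 differed in sign. With median centring its mean was -0.61 ± 0.92 and with spike-in centring -0.79 ± 0.09. The value is uncertain, because a probe not named for any gene shared a run of 46 bases with the S100a11 probe. That probe read 354 and 490 in GFPhigh, against 530 and 441 in GFPlow, a log2 ratio of -0.22 ± 0.52. A further probe, listed only as NAP103812-1, starts 66 bases after the S100a11 probe on the same strand. It read 1758 and 1196 in GFPhigh, against 2543 and 1963 in GFPlow. Its log2 ratio of -0.62 ± 0.13 was below 0 on both arrays, unlike that of the named S100a11 probe.

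Anxa3, known from endothelial migration and as an inhibitor of phospholipase A2 in vitro, had the lowest ratio of the annexins. It read 188 and 220 in GFPhigh, against 891 and 1149 in GFPlow, and the GFPhigh reading was well above background on array 1 only. The log2 ratio was -2.25 and -2.38, with a mean of -2.32 ± 0.10. The size of this difference is uncertain because GFPhigh was near background, and the processed signals of the scanner software gave -3.05 ± 0.16. A second Anxa3 probe, at mm9 chr5:97228985-97229044, was above background in neither population on either array, with 102 and 74 in GFPhigh against 96 and 67 in GFPlow.

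Anxa10 is an annexin with little calcium binding that is known as a marker of gastric epithelium. It read 2964 and 4603 in GFPhigh, against 14840 and 11784 in GFPlow. The populations were well apart, but the arrays differed more than for any other member, with log2 ratios of -2.32 and -1.36 and a mean of -1.84 ± 0.68, or 3.58-fold lower in GFPhigh. Anxa1, the glucocorticoid-induced annexin that acts on formyl peptide receptors, read 330 and 289 in GFPhigh, against 776 and 874 in GFPlow. Its log2 ratio of -1.42 ± 0.26 was 2.67-fold lower in GFPhigh.

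Anxa2, the partner of S100A10 and a cell surface receptor for plasminogen and its activator, read 278 and 239 in GFPhigh with its brighter probe, against 488 and 685 in GFPlow. On array 1 the log2 ratio was -0.81, short of 2-fold, and -1.52 on array 2, so Anxa2 was not called. Its mean was -1.16 ± 0.50. The dimmer Anxa2 probe read 143 and 172 in GFPhigh, with only array 1 well above background, against 248 and 273 in GFPlow. Its log2 ratio was -0.73 ± 0.09, so both Anxa2 probes were lower in GFPhigh on both arrays.

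**Figure D2:**
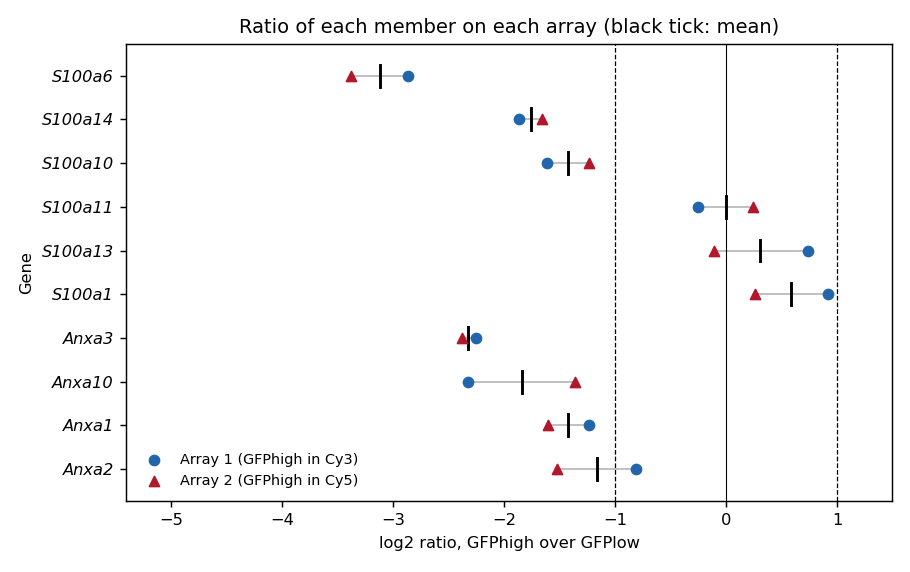
Log2 ratio of GFPhigh over GFPlow of each member on array 1 (circles) and array 2 (triangles), with a black tick at the mean and dashed lines at 2-fold. S100a6 is farthest from 0 at a mean of -3.12, and the 4 annexins lie between -2.32 and -1.16. S100a11, S100a13 and S100a1 lie within 2-fold of 0. The means of S100a13 and S100a1, positive here, fall below 0 with median and with spike-in centring, but by less than their SD.

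**Figure D3:**
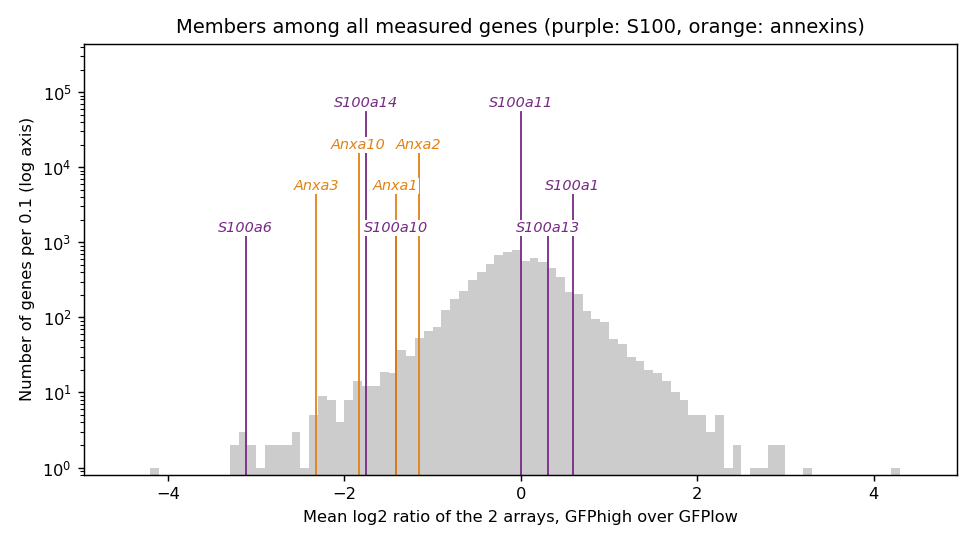
Histogram (log count axis) of the mean log2 ratio of GFPhigh over GFPlow for the 7830 measured genes, with a vertical line for each member. The lines of S100a6, Anxa3, Anxa10, S100a14, S100a10, Anxa1 and Anxa2 lie below the 5th percentile of -0.90, and those of S100a11, S100a13 and S100a1 lie inside the range to the 95th percentile of 0.84.

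Whether annexins follow their S100 partners was read from the difference of 2 log2 ratios on the same array, which a uniform shift such as spike-in centring leaves as it is. Loess depends on intensity, and with median centring in its place the means below became 0.31 ± 0.65 for Anxa2 and S100a10 and -1.38 ± 0.57 for Anxa1 and S100a11. Anxa2 and S100a10, which form a heterotetramer, differed by 0.80 on array 1 and -0.29 on array 2 (annexin minus S100). The arrays differed in sign, with a mean of 0.26 ± 0.77 that became 0.47 ± 0.47 with the mean of the kept probes, so whether these partners differed could not be determined. Anxa1 and S100a11 differed by -0.99 and -1.84, with a mean of -1.41 ± 0.60. Anxa1 was lower relative to S100a11 on both arrays, subject to the uncertainty of the S100a11 probe.

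S100a6 was also set beside the annexins Anxa2 and Anxa11. Anxa2 minus S100a6 was 2.05 on array 1 and 1.86 on array 2, with a mean of 1.96 ± 0.14. The size of this difference depended on the processing and the probe. Processed signals gave -1.51 for Anxa2 and -3.14 for S100a6, and the dimmer Anxa2 probe gave -0.73. Anxa11, a partner of S100A6 that is not among the members, had a log2 ratio of -0.23 ± 0.08, with levels of 133 and 118 in GFPhigh, well above background on array 1 only, against 150 and 143 in GFPlow. Ratios of so dim a probe are drawn towards 0, so the size of its difference from S100a6 is not given. Anxa6, a partner of S100A1, was not measured, so that pair gave no value.

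**Figure D4:**
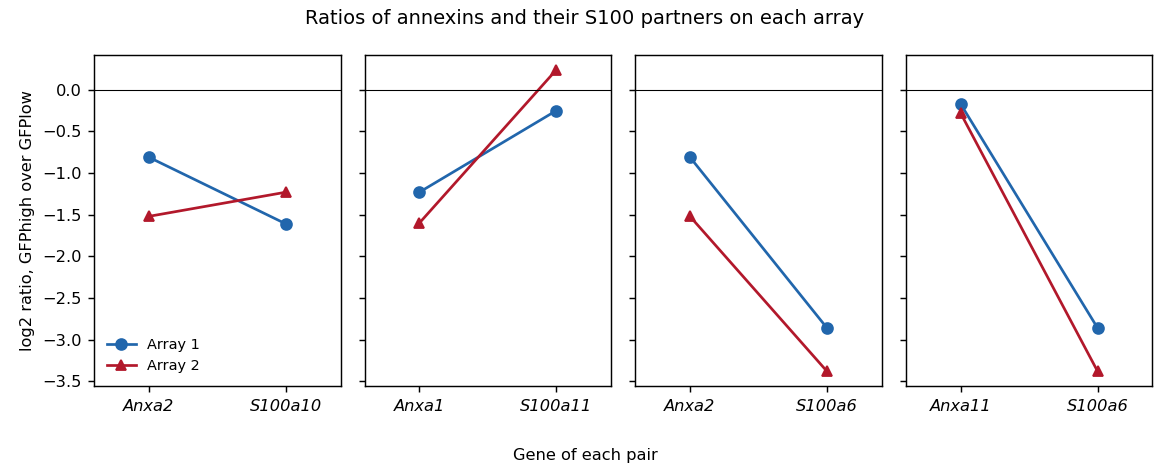
Log2 ratio of GFPhigh over GFPlow of each annexin and its S100 partner on array 1 (circles) and array 2 (triangles), with a line joining the pair on each array. The Anxa2 and S100a10 lines cross (mean difference 0.26 ± 0.77), while Anxa1 lies below S100a11 and S100a6 lies below Anxa2 and Anxa11 on both arrays, the Anxa11 probe being close to background.

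Other genes of both families had log2 ratios from -0.39 to 0.26 where they were measured. Of all genes 1.76% were called higher and 2.69% lower, so the absence of calls among so few genes is not read as a result. Nor are these genes set against the members, which were selected on this ratio. Of 10 other S100 genes listed, 9 were on the array, 3 were measured and 0 were called. S100a4, linked to motility, had a log2 ratio of -0.39 ± 0.13, S100a16 of 0.26 ± 0.30 and S100b, best known from glia, of 0.19 ± 0.21. The GFPhigh reading of S100a4 was well above background on array 1 only, as was that of Anxa11 below, and ratios of such dim probes are drawn towards 0. Of 8 other annexins, 3 were measured and 0 were called. Anxa4 had 0.04 ± 0.01, while another kept Anxa4 probe gave -0.35 and 0.41. Anxa5, the annexin used to stain dying cells, had 0.04 ± 0.26, and Anxa11 had the -0.23 ± 0.08 given above.

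Of 12 listed partners and cofactors, 5 were measured and 0 were called, against 1.76% of all genes called higher and 2.69% lower. Their median log2 ratio was -0.63, against -0.06 over all genes. With so few genes, chosen with earlier results known, nothing is read from the count or the median. Myof, encoding the membrane repair protein myoferlin, read 279 and 340 in GFPhigh, against 867 and 680 in GFPlow. Its log2 ratio was -1.32 ± 0.45 and array 2 fell just short of 2-fold, whereas a dimmer Myof probe gave -1.06 and -1.27, past 2-fold on both arrays. Cacybp, the S100A6 binding adaptor, had -0.90 ± 0.45, and Ahnak, the giant scaffold bound by annexin A2 and S100A10, had -0.63 ± 0.01. Dimmer Ahnak probes, not above background in GFPhigh, gave -0.90 ± 0.18 and -1.63 ± 0.24. Sugt1, a co-chaperone that binds S100A6, had 0.04 ± 0.32 and Pla2g4a, a phospholipase A2 gene, had -0.07 ± 0.54. The formyl peptide receptors Fpr1 and Fpr2, the plasminogen system genes Plat and Plg, Ager, Dysf and S100pbp were not measured.

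The 6 S100 members lie on mouse chromosome 3, where their probes span mm9 chr3:90315133-93368496, a stretch of 3.05 Mb. Within the first 0.103 Mb, neighbours read differently. S100a1 and S100a13, with probes 4.8 kb apart, had 0.59 and 0.31. With median and with spike-in centring both means were below 0, but by less than their SD. S100a14, 17.3 kb from the S100a1 probe, had -1.76, S100a16 at 30.9 kb had 0.26, S100a4 at 94.7 kb had -0.39 and S100a6 at 103 kb had -3.12. In the whole stretch 17 genes or probe names were measured, of which 11 were not members. Of these 11, 0 were called higher and 3 were called lower in GFPhigh, against 1.76% and 2.69% of all genes. The 3 were all Sprr2 genes, which encode small proline-rich proteins of cornified and stressed epithelia. Sprr2b had -1.77 ± 0.88, Sprr2k -1.72 ± 0.50 and Sprr2e -1.38 ± 0.18. The largest values in the other direction were 0.90 ± 0.10 for Lor, which encodes loricrin of the cornified envelope, 0.26 for S100a16 and 0.22 ± 0.80 for Sprr2g. Sprr2 genes are near-identical copies, so a probe may read more than 1 of them, and nothing is read from their count.

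**Figure D5:**
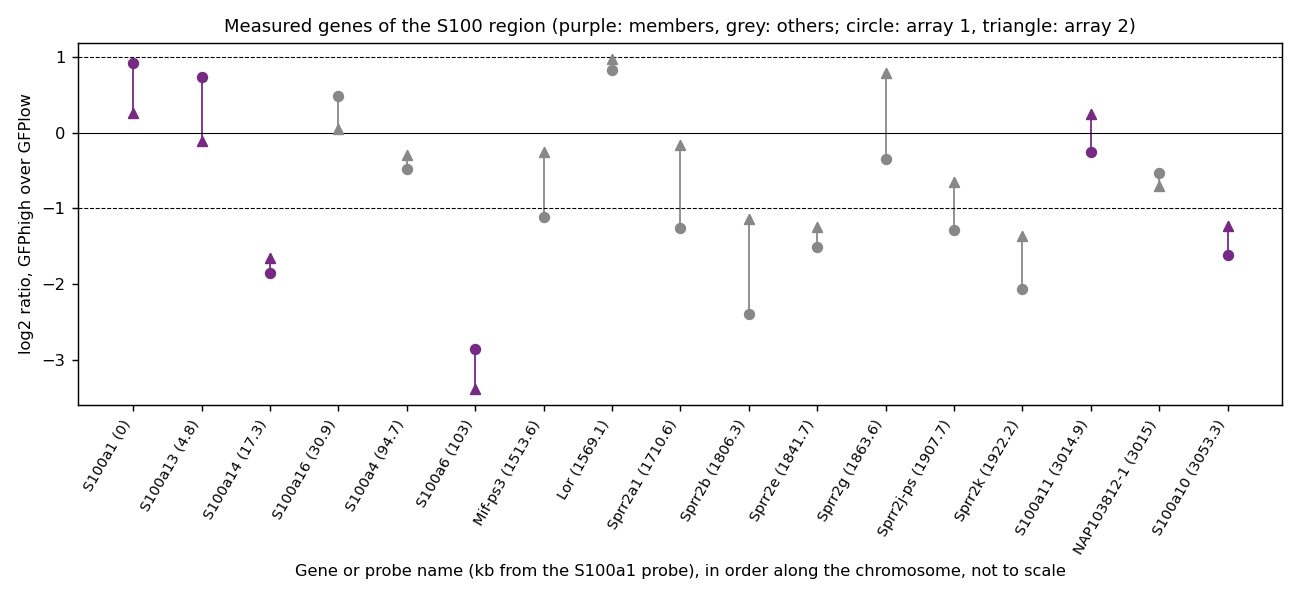
Log2 ratio of GFPhigh over GFPlow on array 1 (circles) and array 2 (triangles) for the 17 measured genes or probe names between the S100a1 and S100a10 probes, in chromosomal order and not to scale. Member genes (purple) at the left end range from 0.59 for S100a1 (-0.20 ± 0.73 with spike-in centring) to -3.12 for S100a6 within 103 kb. The 3 called non-members are Sprr2b, Sprr2e and Sprr2k.

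Promoter windows, from 250 bases before to 50 after each start, were matched by symbol for 7 of the 10 members (RefSeq, GRCm38.p6). S100a1 and S100a13 are read in opposite directions from neighbouring starts, and their windows share 204 bases. The shared stretch, at GRCm38.p6 chr3:90514281-90514484, is shown in capitals within the S100a13 window on the plus strand, because these neighbours were the only members with positive mean ratios. With median and with spike-in centring both means were below 0, by less than their SD, so neither sign was settled.
S100a13 window: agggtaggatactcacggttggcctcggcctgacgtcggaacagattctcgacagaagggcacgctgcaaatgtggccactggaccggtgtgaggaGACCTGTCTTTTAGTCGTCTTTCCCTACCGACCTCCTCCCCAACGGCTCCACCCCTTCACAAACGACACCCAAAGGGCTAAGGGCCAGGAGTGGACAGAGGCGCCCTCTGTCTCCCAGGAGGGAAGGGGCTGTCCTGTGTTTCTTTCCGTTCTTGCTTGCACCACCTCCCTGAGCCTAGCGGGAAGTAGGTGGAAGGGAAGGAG
The window of S100a6, the member with the lowest ratio, and that of Anxa2 follow, with motifs in capitals. S100a6 lies at chr3:90612644-90612943 and Anxa2 at chr9:69453433-69453732, both on the plus strand.
S100a6 window: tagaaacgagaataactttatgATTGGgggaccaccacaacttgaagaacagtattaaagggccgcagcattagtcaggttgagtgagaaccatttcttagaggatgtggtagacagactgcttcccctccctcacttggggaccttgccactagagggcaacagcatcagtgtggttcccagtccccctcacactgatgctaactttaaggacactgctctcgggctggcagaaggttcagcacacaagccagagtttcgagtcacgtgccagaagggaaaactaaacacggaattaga
Anxa2 window: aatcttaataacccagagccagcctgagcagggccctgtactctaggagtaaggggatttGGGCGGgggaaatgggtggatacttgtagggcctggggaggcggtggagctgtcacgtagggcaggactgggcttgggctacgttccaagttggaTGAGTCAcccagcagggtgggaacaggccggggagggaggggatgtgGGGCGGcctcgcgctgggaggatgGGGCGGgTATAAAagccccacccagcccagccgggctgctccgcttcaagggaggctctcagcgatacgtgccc
Motifs were searched on both strands, and the share of all 32851 windows holding each is given beside it. The TATA box, searched as TATAAA, was in the Anxa1, Anxa2 and Anxa10 windows (13.6% of all windows). The AP-1 motif, searched as TGANTCA, was in the windows of Anxa10, Anxa2 and S100a11 (7.81%). The GC box, searched as GGGCGG, was in those of Anxa2 and S100a11 (35.7%). The CCAAT box was in that of S100a6 (37.4%), where it reads as its reverse complement, and the TCF motif, searched as CTTTGAT, was in 0 of the 7 (3.73%). These matches describe the letters of the windows only.

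Marker genes of other cell types and states were read in the same populations. Over all genes 1.76% were called higher and 2.69% lower. The lists were chosen with earlier results of these data known, so their counts are a description and not a test. All 4 surface mucous genes (Muc5ac, Gkn1, Gkn2 and Tff1) were called lower in GFPhigh, with a median log2 ratio of -2.77. Gkn1 was not well above background in GFPhigh on either array, and a dimmer Muc5ac probe gave -0.61 on both arrays, short of 2-fold. Proliferation genes were called lower in 3 of 4, with a median of -1.9. In GFPhigh, Top2a, the gene not called, was well above background on neither array, and Ccnb1 on array 1 only. Gland base mucous genes were called higher in 2 of 4, Aqp5 and Gkn3, with a median of 2.27 for the list. The arrays differed widely here, with list medians of 1.57 on array 1 and 3.02 on array 2. Epithelial genes were measured in 5 of 5 with a median of -0.16, and 1, Krt19, was called lower at -2.24 ± 0.04. Krt8 was not called, with -1.89 and -0.49 from its brighter probe, while its other probe gave -1.53 ± 0.05, past 2-fold on both arrays. The part of these differences in the member ratios was not tested. Fibroblast and smooth muscle genes were measured in 2 of 7, Col1a2 at 0.60 ± 0.75 and Acta2 at -0.55 ± 0.16. Endothelial genes were measured in 1 of 4, Egfl7 at -0.62 ± 0.39, and neither list had a called gene. Neutrophil genes, among them S100a8 and S100a9, were measured in 0 of 4 on the array, squamous genes in 0 of 4 and leukocyte genes in 1 of 8.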

How the data were processed

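The members and gene lists were chosen with earlier results of these data known. The authors deposited, for 2 arrays of 45018 spots each (43379 gene spots), mean and local background intensity per channel, with processed intensity, a log10 ratio and its p-value from the single-array error model, per the file headers; no p-value is used here. The headers name Feature Extraction 10.5.1.1 and the submitters' processing notes 9.5.3. Probe positions are mm9. A value table of the series held the same log10 ratios turned to GFPhigh over GFPlow.

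Intensities were background-corrected (normexp, offset 50) and loess-normalised within arrays with limma 3.58.1 in R 4.3.3, giving control spots no weight. Ratios of dim probes are drawn towards 0 by this correction. Spots marked non-uniform or as outliers were dropped, spots of a probe averaged, and the brightest kept probe represented a gene. Levels were taken after Aquantile. Gene spots saturated numbered 0. The arrays share 1 slide and 1 scan. Steps were tested on simulated data with as many probes raised as lowered, so the choice of centring was not tested. RNA input was 150 ng. Symbols came from RefSeq (GRCm38.p6). Named were all members, the listed family genes, partners and markers, and the 3 neighbours with the largest ratios in each direction. Alternatives covered background, signals, centring, filter, probe rule, threshold, value table and each array alone. The main limit is 1 RNA extract per population, since the 2 arrays show technical spread only.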

Additional observations from a re-analysis of the deposited data

How the results depend on the processing

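Over 12 alternatives, 5 to 7 members were called lower and 0 higher in GFPhigh, against 6 and 0. The annexin median of -1.63 was -1.49 with no background correction, -2.37 with median centring, -2.41 with spike-in centring and -1.42 where both populations had to be above background, which removed Anxa3. The S100 median of -0.71 was -1.32 with median centring and -1.5 with spike-in centring, and each array alone gave -0.93 to -0.67. S100a1 became -0.01 ± 1.75 with median centring and -0.20 ± 0.73 with spike-in centring. S100a13 became -0.21 ± 1.74 and -0.47 ± 0.86, and S100a11, near 0 otherwise, became -0.61 ± 0.92 and -0.79 ± 0.09 under the same settings. For S100a1 and S100a13 the SD exceeded the size of the mean under both. Anxa2 minus S100a10 was -0.29 on array 2 alone and 0.80 on array 1 alone, and Anxa1 minus S100a11 stayed between -1.84 and -0.99. S100a6 ranged from -3.92 to -2.86, S100a14 from -2.54 to -1.46, S100a10 from -2.21 to -1.22, Anxa3 from -3.10 to -1.92, Anxa10 from -2.75 to -1.36, Anxa1 from -2.20 to -1.16 and Anxa2 from -1.95 to -0.81. Over all genes the count of 138 higher and 211 lower became 10 and 215 with median centring (median of all genes -0.49) and 23 and 1322 with spike-in centring (median -0.81). It became 352 and 512 with processed signals, 352 and 508 with the value table, 438 and 587 at 1.5-fold, 347 and 397 on array 1 alone, 371 and 497 on array 2 alone, 125 and 139 with both populations above background, and 93 and 145 with no background correction. The cause was not tested. No paired analysis was possible because 1 RNA extract per population was hybridised.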
